A study of Mus musculus with 4 samples.

Results

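The genes described here are the 10 structural, cross-linking and assembly genes of the elastic fibre, Eln, Fbn1, Fbn2, Fbln5, Lox, Loxl1, Mfap2, Mfap4, Emilin1 and Ltbp4, taken by name from the 31053 genes of a single-cell count matrix of fetal mouse cells labelled as lung. The matrix holds 43351 cells in 4 libraries, 1 per group. At E14.5 and at E18.5, 1 library came from Cyp27a1-/- fetuses carried by a Cyp27a1-/- mother (null mother) and 1 from Cyp27a1-/- fetuses carried by a Cyp27a1+/- mother (heterozygous mother). All fetuses are labelled Cyp27a1-/-, for the gene of sterol 27-hydroxylase, an enzyme of bile acid and oxysterol synthesis, and by their labels the groups differ in the mother's genotype and in age. The labels give no number of pooled fetuses. The comparison made here asks how the levels of the elastic fibre genes in mesenchymal, smooth muscle and endothelial cells differed with the mother's genotype.

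Elastic fibres give the lung and its vessels their recoil. Tropoelastin, the product of Eln, is laid down on microfibrils built from the fibrillins, with the help of fibulin-5 and LTBP4, and is then cross-linked by the copper-dependent lysyl oxidases LOX and LOXL1. In the developing lung the fibres are made mainly by mesenchymal cells, by airway and vascular smooth muscle and, in vessels, also by endothelium.

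With 1 library per group no difference could be tested against replicates, so every interval below is an exact interval at the 95% level that covers counting error only. Levels are UMIs (unique molecular identifiers, which count captured transcripts) of a gene per 1000000 UMIs of the summed cells of a class (CPM). CPM is a share of the RNA captured from a class, so a level is compared within a gene and not between genes. The E14.5 libraries held 4843 cells and 53293964 UMIs (null mother) and 4957 cells and 47005276 UMIs (heterozygous mother). At E18.5 there were 16517 cells with 118054232 UMIs (null mother) and 17034 cells with 97894048 UMIs (heterozygous mother). The E18.5 libraries went against their lung label: Nkx2-1, the lung epithelial transcription factor, had 1 UMI in the null-mother library and 4 UMIs in the heterozygous-mother library, and Alb, the hepatocyte gene of albumin, stood at 8344 CPM and 2905 CPM. At E14.5, Nkx2-1 had 2804 and 1935 UMIs. The heterozygous mother's E18.5 title also carries a WT tag, against a genotype label of Cyp27a1-/-. Of the E18.5 cells, 4411 were called female and 3875 male with the null mother, against 22 and 5395 with the heterozygous mother. Cyp27a1 itself was counted at 19.7 CPM and 18.7 CPM at E14.5 and at 37.3 CPM and 38.5 CPM at E18.5 (null mother, then heterozygous mother), which checks no genotype, since all fetuses carry the same genotype label and the counted tags need not lie in the deleted part. The 2 E14.5 libraries shared 94 cell barcodes and the 2 E18.5 libraries 164.

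At E14.5 the cells were clustered on variable genes from which the 10 elastic fibre genes had been left out, and clusters were named from marker lists. Mesenchyme held 1155 cells of the null mother's fetuses and 1221 of the heterozygous mother's, smooth muscle 305 and 287 cells, and endothelium 723 and 559 cells. The classes differed in depth between libraries: the median cell had 15644 UMIs (null mother) and 17572 UMIs (heterozygous mother) in mesenchyme, 13143 and 4264 UMIs in smooth muscle, and 4307 and 2463 UMIs in endothelium. A deep cluster held 217 of the 305 smooth muscle cells and 407 of the 723 endothelial cells with the null mother, against 145 of 287 and 192 of 559 with the heterozygous mother; the rest were in a shallow cluster of each class. In mesenchyme the largest cluster with the null mother was one led by Mfap4, Adh1 and Vegfd (518 cells, against 359), and with the heterozygous mother a dividing cluster led by histone genes (493 cells, against 358 with the null mother).

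The genes lie on 8 chromosomes (GRCm38, GENCODE annotation), with Eln at chr5:134702593-134747323 on the minus strand and Emilin1 on the same chromosome at chr5:30913402-30921277 on the plus strand. In the annotation Eln, Fbn1, Fbn2 and Mfap4 each overlap 1 gene of the matrix on the opposite strand, Gm30003, Gm9913, Gm26507 and Mapk7, and whether the authors' counting used strand is not given in the sources used here.

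Promoter sequences for 5 of the 10 genes (Fbn1, Fbln5, Mfap2, Emilin1 and Ltbp4, with 9 annotated starts) were in the RefSeq table of build GRCm38.p6. The 250 bases before a start are shown for Fbln5 and Ltbp4, whose products both act in the deposition of elastin onto microfibrils and whose windows overlap no annotated exon. They are chr12:101819120-101819369 (Fbln5) and chr7:27333664-27333913 (Ltbp4, one of 3 starts), both read on the minus strand, 5′ to 3′, with every match to GGGCGG, the GC box, in capitals on either strand (on the opposite strand it reads CCGCCC).
Fbln5: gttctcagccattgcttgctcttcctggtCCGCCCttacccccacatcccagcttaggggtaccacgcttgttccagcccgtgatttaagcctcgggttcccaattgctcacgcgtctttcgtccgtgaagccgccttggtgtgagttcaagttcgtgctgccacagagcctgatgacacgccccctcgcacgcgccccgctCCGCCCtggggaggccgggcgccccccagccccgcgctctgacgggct
Ltbp4: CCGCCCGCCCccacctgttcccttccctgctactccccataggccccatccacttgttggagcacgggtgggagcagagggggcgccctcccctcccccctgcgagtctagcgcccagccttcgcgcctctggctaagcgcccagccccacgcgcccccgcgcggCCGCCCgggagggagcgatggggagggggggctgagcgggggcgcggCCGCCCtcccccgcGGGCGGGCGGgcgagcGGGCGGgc
The Fbln5 window held 2 matches and the Ltbp4 window 7, some of which overlap each other. Of the 9 windows only these 2 were free of annotated exons, and windows of neighbouring Ltbp4 starts overlap, so a match there can be counted more than once. Over the 9 windows GGGCGG occurred in 6 (4 of the 5 genes), CAGAC (a core of the SMAD-binding element, both strands) in 3 (3 of the 5 genes) and TATAAA (the TATA box, both strands) in 0. Of all 32851 promoter windows of this length, 32.7% held GGGCGG, 42.2% CAGAC and 12.4% TATAAA.

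Eln was highest in smooth muscle. It stood at 1746 CPM in smooth muscle of the null mother's fetuses and 763 CPM in that of the heterozygous mother's, above every other named class in both libraries. The next levels with the null mother were 270 CPM in mesenchyme and 251 CPM in mesothelium, whose intervals overlapped, then 155 CPM in pericytes, 52.9 CPM in immune cells and 34.1 CPM in endothelium. With the heterozygous mother endothelium at 205 CPM and pericytes at 195 CPM had overlapping intervals, and mesenchyme followed at 146 CPM. Erythroid cells, which do not make elastin, had 9.28 CPM and 8.42 CPM, far below the levels in mesenchyme and smooth muscle. The 8 erythroid markers made up 857797 and 889472 CPM of the erythroid cells. That lowers the CPM of every other gene there, so these Eln levels are no measure of background for other classes. Of the 171 Eln UMIs in immune cells of the null mother's fetuses, 132 were in 1 cell.

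The microfibril genes were not all highest in the same class. Fbn1, the main fibrillin of adult tissue, was at 206 and 180 CPM in smooth muscle, 133 and 88.7 CPM in mesenchyme and 15.0 and 30.5 CPM in endothelium (null mother, then heterozygous mother). Fbn2, the fibrillin of early development, did not follow it: of the named classes its level in epithelium, 291 and 346 CPM, was above those in mesenchyme (194 and 203 CPM), smooth muscle (167 and 182 CPM) and endothelium (80.2 and 86.2 CPM). It was higher still in an unnamed cluster led by Lama5 and Col18a1 (156 and 131 cells), at 1294 and 1231 CPM. That cluster was shallow (median 1595 and 1885 UMIs), with a median of 17.1% mitochondrial RNA and markers of different classes. Another unnamed cluster, with a median of 43.2% mitochondrial RNA, had Fbn2 at 657 and 578 CPM. Within mesenchyme Fbn2 reached 515 and 487 CPM in a small cluster led by Postn and Crabp1. Mfap2, a microfibril protein that binds fibrillin, was at 864 and 756 CPM in smooth muscle and 419 and 389 CPM in mesenchyme. Mfap4, which binds tropoelastin and fibrillin, was higher in mesenchyme (1423 CPM) than in smooth muscle (1337 CPM) with the null mother, and higher in smooth muscle (1133 CPM) than in mesenchyme (708 CPM) with the heterozygous mother. Emilin1, a glycoprotein at the boundary of elastin and microfibrils, was expressed in all 3 classes, at 254 and 237 CPM in smooth muscle, 189 and 169 CPM in mesenchyme and 131 and 134 CPM in endothelium.

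Of the assembly genes, Fbln5 stood at 34.9 and 26.9 CPM in smooth muscle, 25.3 and 22.3 CPM in mesenchyme, 48.7 and 64.0 CPM in mesothelium and 20.1 and 79.0 CPM in endothelium. The Postn and Crabp1 cluster had Fbln5 at 384 and 251 CPM and held 272 of the 481 mesenchymal Fbln5 UMIs with the null mother and 240 of the 495 with the heterozygous mother. An unnamed cluster led by Scgb3a2 and Sox2 had 99.5 and 73.8 CPM. Ltbp4, which also carries latent TGF-beta, was at 83.1 and 85.1 CPM in smooth muscle and 58.1 and 39.9 CPM in mesenchyme. Among the cross-linking enzymes, Lox was at 233 and 186 CPM in smooth muscle and 138 and 90.9 CPM in mesenchyme, with 3.02 and 7.44 CPM in endothelium and 2.94 and 1.84 CPM in epithelium. Loxl1 was at 31.9 and 31.6 CPM in smooth muscle, 23.7 and 13.7 CPM in mesenchyme and 7.45 and 13.9 CPM in epithelium.

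**Figure D1:**
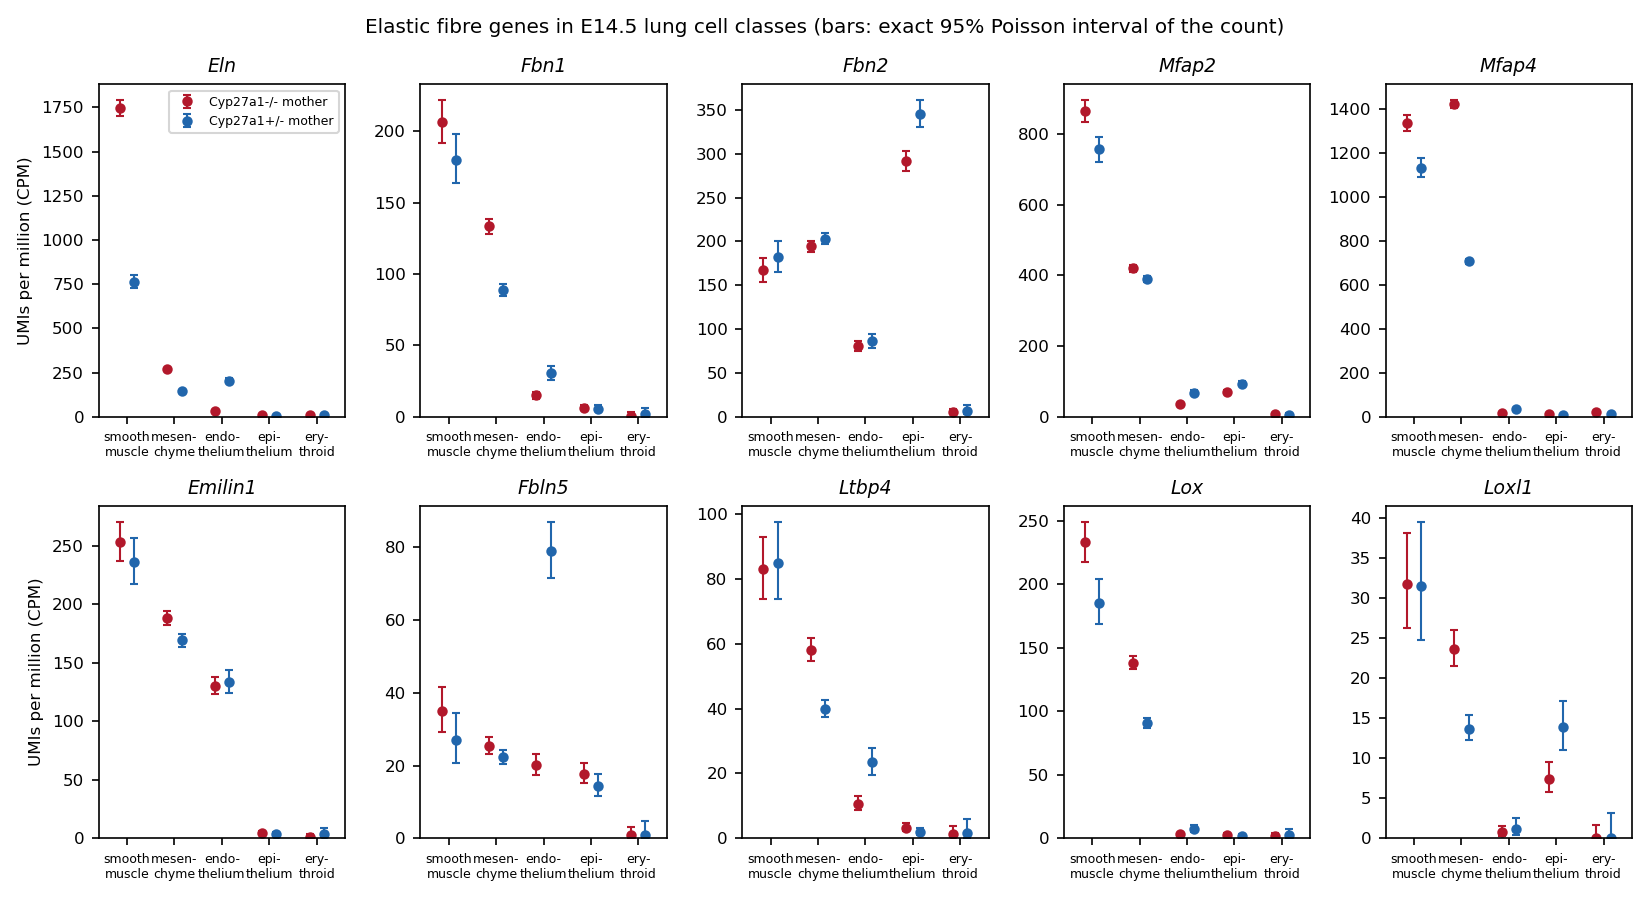
Levels of the 10 elastic fibre genes in 5 E14.5 cell classes, in CPM on a linear axis from 0, 1 panel per gene with its own scale. Red points are the library of the Cyp27a1-/- mother and blue points that of the Cyp27a1+/- mother, with exact Poisson intervals. Eln in smooth muscle is at 1746 CPM (red) and 763 CPM (blue), and of the 5 classes shown Fbn2 is highest in epithelium.

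In E14.5 mesenchyme the elastin, lysyl oxidase and several microfibril genes were higher in the fetuses of the null mother. Mfap4 had 1423 CPM (27013 UMIs) with the null mother, against 708 CPM (15730 UMIs) with the heterozygous mother, a ratio of 2.01 (interval 1.97 to 2.05). Eln had 270 CPM, against 146 CPM with the heterozygous mother, a ratio of 1.85 (1.77 to 1.93). Both lysyl oxidases were higher: Loxl1 by a ratio of 1.73 (1.49 to 2.00) and Lox by 1.52 (1.44 to 1.61). Fbn1 had a ratio of 1.5 (1.42 to 1.60), just past the 1.5-fold line, and Ltbp4, at 1.46 (1.33 to 1.59), was just short of it. The other 4 were closer to even, Fbln5 at 1.14 (1.00 to 1.29), Emilin1 at 1.11 (1.06 to 1.17), Mfap2 at 1.08 (1.05 to 1.11) and Fbn2 at 0.956 (0.915 to 0.999). The genes that differed most between the libraries were thus elastin, its cross-linking enzymes, MFAP4 and fibrillin-1, with LTBP4 close behind, while fibrillin-2, MFAP2, EMILIN1 and fibulin-5 were near even.

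Thus 5 of the 10 genes were at least 1.5-fold higher in mesenchyme with the null mother and 0 at least 1.5-fold lower, where 2.78% and 1.89% of the 11101 genes with enough UMIs were past those lines. A ratio above 1 was seen for 9 of the 10, against 43.8% of all those genes. The median difference of log2(CPM + 10) was 0.48 over the 10 genes and -0.02 over all genes. The summed level of the 12 mesenchyme markers was 4719 CPM with the null mother and 4173 CPM with the heterozygous mother, and that of the 6 markers of dividing cells 1524 and 1623 CPM. The 9 smooth muscle markers summed to 831 and 666 CPM in these cells, and their part in the result was not tested. The summed level of the 8 erythroid markers in these mesenchymal cells was 1479 and 232 CPM, and its part in the result was not tested. As a check on scale within these cells, Eln had 0.218 UMIs per Col1a1 UMI with the null mother and 0.141 with the heterozygous mother.

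In E14.5 smooth muscle Eln stood out from the rest of the group. It had 6304 UMIs in 305 cells of the null mother's fetuses, against 1813 UMIs in 287 cells of the heterozygous mother's, and its ratio was 2.29 (2.17 to 2.41). The remaining 9 genes had ratios from 0.916 (Fbn2) to 1.30 (Fbln5). Fbln5 (0.951 to 1.78), Emilin1, Loxl1, Ltbp4 and Fbn2 had intervals that include 1, while those of Lox (1.25, 1.12 to 1.41), Mfap4 (1.18, 1.13 to 1.24), Fbn1 (1.15, 1.02 to 1.29) and Mfap2 (1.14, 1.08 to 1.21) lay above it. A ratio above 1 was seen for 8 of the 10, against 49.1% of all genes with enough UMIs. So 1 of 10 was at least 1.5-fold higher, where 3.21% of 7109 genes were, and 0 were at least 1.5-fold lower, where 3.49% were. The median difference of log2(CPM + 10) was 0.19 for the 10 and -0.01 for all genes. Over the same cells the summed level of the 9 smooth muscle markers was lower, 13328 CPM with the null mother and 19703 CPM with the heterozygous mother, as was that of the 7 heart muscle markers, 521 and 995 CPM. Their part in the result was not tested.

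**Figure D2:**
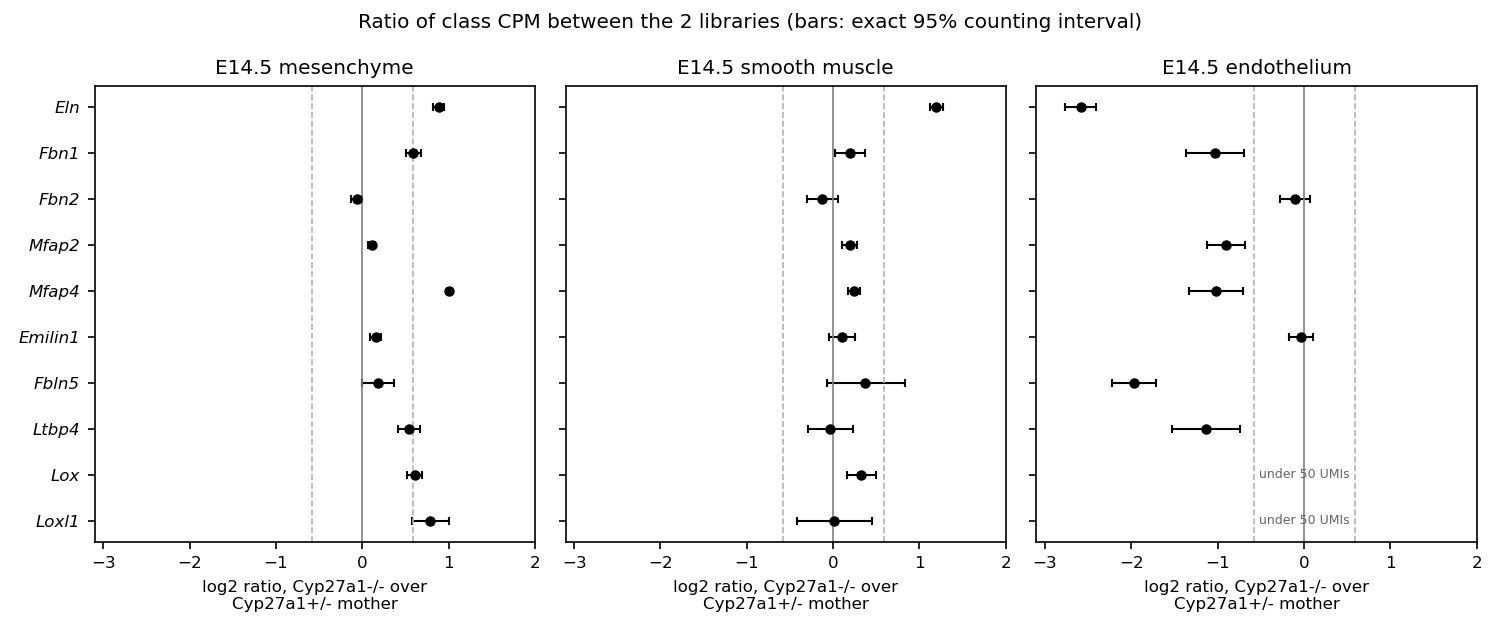
Ratio of CPM, library of the Cyp27a1-/- mother over that of the Cyp27a1+/- mother, on a log2 axis for the 10 genes in 3 E14.5 classes, with exact counting intervals, and dashed lines mark 1.5-fold either way. Eln lies at 1.85 in mesenchyme, 2.29 in smooth muscle and 0.166 in endothelium, and Fbn2 and Emilin1 stay near 1 in each.

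Finer clusters gave the same direction for Eln. It was higher with the null mother in all 7 clusters named mesenchyme or smooth muscle, with ratios from 1.32 to 3.43 and every interval above 1. The highest ratio was in a small mesenchymal cluster led by Postn and Crabp1 (62 cells with the null mother, 66 with the heterozygous mother), where Eln was at 2165 CPM, against 631 CPM with the heterozygous mother. This cluster held 1535 of the 5120 mesenchymal Eln UMIs of the null mother's library. Without it the mesenchymal Eln ratio was 1.58 in place of 1.85 and that of Fbln5 was 0.953 in place of 1.14. Ltbp4 passed the 1.5-fold line without it. The deep smooth muscle cluster had Eln at 1808 and 835 CPM and the shallow one at 724 and 312 CPM (null mother, then heterozygous mother). At a higher clustering resolution the 5 smooth muscle groups had Eln from 724 to 5200 CPM with the null mother and from 312 to 2485 CPM with the heterozygous mother, and in each of the 5 the null-mother value was the higher.

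Mfap4 was likewise higher with the null mother in 7 of 7 clusters (ratios 1.06 to 2.69), with 1 interval, in the Postn and Crabp1 cluster, that included 1. Fbn1 and Lox were each higher in 6 of the 6 clusters with enough UMIs, and in 5 of them the interval lay above 1. Mfap2 was higher in 7 of 7 but by no more than 1.23. Fbn2 was higher in 3 of 6 and Fbln5 in 3 of 4, with 1 Fbln5 interval above 1 and 1 below it. All these counts leave out shallow unnamed clusters that held mesenchyme markers. In one led by Gm10848 and Epha5 (348 and 240 cells) Lox had a ratio of 0.958 (0.730 to 1.26), Mfap2 0.896 (0.755 to 1.06) and Fbn2 0.842. Eln (1.44), Mfap4 (1.54) and Fbn1 (1.30) were above 1 there. In the Mfap4-led mesenchymal cluster Fbln5 was at 15.2 CPM, against 22.4 CPM with the heterozygous mother, a ratio of 0.678 (0.520 to 0.882).

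The share of cells with an Eln UMI was 78.3% of mesenchymal cells with the null mother and 71.1% with the heterozygous mother, and 81.3% and 57.1% of smooth muscle cells. With each cell thinned to 2000 UMIs, the shares were 24.5% of 1142 and 20.9% of 1215 mesenchymal cells, with overlapping exact binomial intervals (22.05% to 27.1% and 18.7% to 23.3%), and 74.6% of 236 and 46.9% of 194 smooth muscle cells, whose intervals (68.5% to 80.0% and 39.7% to 54.2%) did not overlap. Thinning left out 13 and 6 mesenchymal cells and 69 and 93 smooth muscle cells. Erythroid cells, with median depths of 7052 and 7304 UMIs, had thinned shares of 1.47% and 1.55%. Most of their UMIs were of the erythroid markers, which lowers these shares. For Mfap4 the thinned shares in mesenchyme were 69.4% and 52.0%.

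Both E14.5 libraries held cells called male by Y-linked transcripts (726 with the null mother, 819 with the heterozygous mother) and cells called female by Xist (2052 and 1507). In mesenchyme the Eln ratio was 1.58 in male and 1.93 in female cells. In smooth muscle it was 2.61 in male and 2.15 in female cells.

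**Figure D3:**
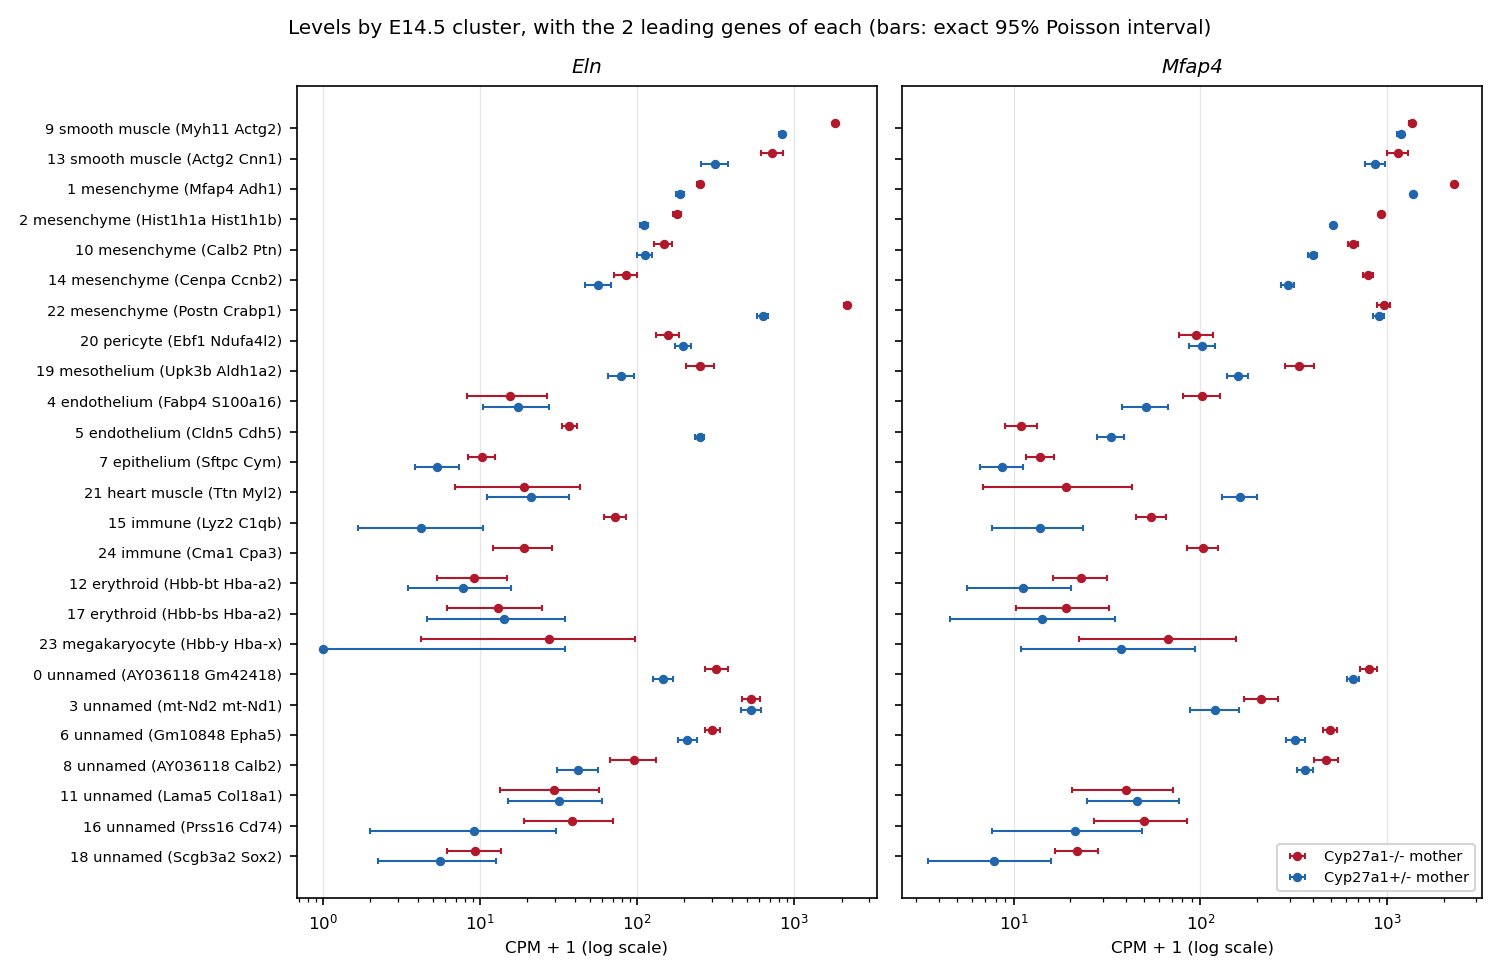
Eln (left) and Mfap4 (right) in each E14.5 cluster with at least 20 cells in a library, as CPM + 1 on a log axis with exact Poisson intervals. Red is the Cyp27a1-/- mother, blue the Cyp27a1+/- mother, and each cluster is given with its class and 2 leading genes. Eln is higher in red in all 7 clusters named smooth muscle or mesenchyme and higher in blue in the deep endothelial cluster (35.9 against 248 CPM).

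Endothelium showed the opposite direction, on far fewer UMIs of these genes. Eln had 34.1 CPM (317 UMIs) with the null mother, against 205 CPM (1076 UMIs) with the heterozygous mother, a ratio of 0.166 (0.146 to 0.189). Fbln5 had 20.1 CPM, against 79.0 CPM with the heterozygous mother, a ratio of 0.255 (0.213 to 0.304). Ltbp4 (0.455), Fbn1 (0.491), Mfap4 (0.492) and Mfap2 (0.533) were also lower with the null mother by more than 1.5-fold, while Fbn2 (0.931, 0.827 to 1.05) and Emilin1 (0.977, 0.890 to 1.07) were near even. Lox, with 28 and 39 UMIs, and Loxl1, with 7 and 6, had too few UMIs for a ratio. All 8 genes with enough UMIs had a ratio below 1, against 44.7% of all such genes, but under other processing Emilin1 kept that direction in 10 of 16 alternatives, Fbn2 in 13 of 16 and Mfap4 in 11 of 14. Mfap4 also differed between the endothelial clusters. In the shallow cluster it was higher with the null mother, at 101 CPM (77 UMIs), against 50.2 CPM (49 UMIs) with the heterozygous mother, a ratio of 2.01 (1.39 to 2.93), and in the deep cluster it was lower, with a ratio of 0.311 (0.234 to 0.410). At least 1.5-fold lower were 6 of the 8, where 2.13% of 8866 genes were, and 0 were at least 1.5-fold higher, where 3.98% were. The median difference of log2(CPM + 10) was -0.71 for the 8 and 0.02 for all genes.

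The endothelial totals of Eln and Fbln5 rested on a handful of cells. At least 1 UMI of Eln was found in 58 and 40 cells and of Fbln5 in 40 and 35 (null mother, then heterozygous mother). Emilin1 was found in 356 and 184 cells, Fbn2 in 277 and 160 and Mfap2 in 168 and 118. Fbn1 was in 75 and 49 cells, Mfap4 in 84 and 58 and Ltbp4 in 58 and 42. In the null mother's library 6 of the 723 endothelial cells had 10 or more Eln UMIs and held 78.9% of all endothelial Eln UMIs; in the heterozygous mother's library 10 of 559 cells did and held 95.3%. The cell with the most Eln had 89 UMIs with the null mother and 334 UMIs with the heterozygous mother, and in each library 2 cells held more than 50% of the Eln UMIs. For Fbln5 more than 50% was held by 3 cells with the null mother and 2 with the heterozygous mother. Of the cells with 10 or more Eln UMIs, 2 of 6 and 6 of 10 held 3 or more UMIs of the mesenchyme markers (null mother, then heterozygous mother). By cluster, 4 of 6 and 7 of 10 of them fell in one led by the arterial genes Gja4 and Sox17. This cluster appeared at the higher resolution (44 cells with the null mother, 26 with the heterozygous mother). In that cluster Eln was at 215 CPM, against 1991 CPM with the heterozygous mother, and Fbln5 at 112 CPM, against 747 CPM. Markers of other cells moved with it: Col1a1, the mesenchymal collagen gene, had 10 UMIs there with the null mother, against 154 UMIs with the heterozygous mother, and 96.1% of those 154 were in 2 cells. Over the whole endothelium the summed level of the 12 mesenchyme markers was 233 and 389 CPM, that of the 9 smooth muscle markers 47.5 and 74.8 CPM and that of the 7 arterial markers 419 and 316 CPM (null mother, then heterozygous mother). The summed level of the 7 lymphatic markers was 310 and 560 CPM and that of the 8 erythroid markers 913 and 383 CPM; the part of other cell types in the result was not tested. In the endothelial cells outside the arterial-like cluster, Eln was at 10.5 and 19.0 CPM, 1 of 5 genes with enough UMIs, Eln itself (ratio 0.553), was at least 1.5-fold lower, where 1.46% of 8536 genes were, and Mfap4 stood at a ratio of 0.748. Over all endothelium the Eln ratio was 0.0656 in male and 0.413 in female cells. These ratios rest on few cells. Those with 10 or more Eln UMIs were called 3 male and 3 female with the null mother, and 5 male and 3 female with the heterozygous mother.

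The share of endothelial cells with an Eln UMI was 8.02% with the null mother and 7.16% with the heterozygous mother. Thinned to 2000 UMIs it was 3.00% of 467 and 5.59% of 304 cells, with overlapping intervals (1.65% to 4.98% and 3.29% to 8.80%). These intervals are over cells, which are not replicates, and the difference in the share was not tested.

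**Figure D4:**
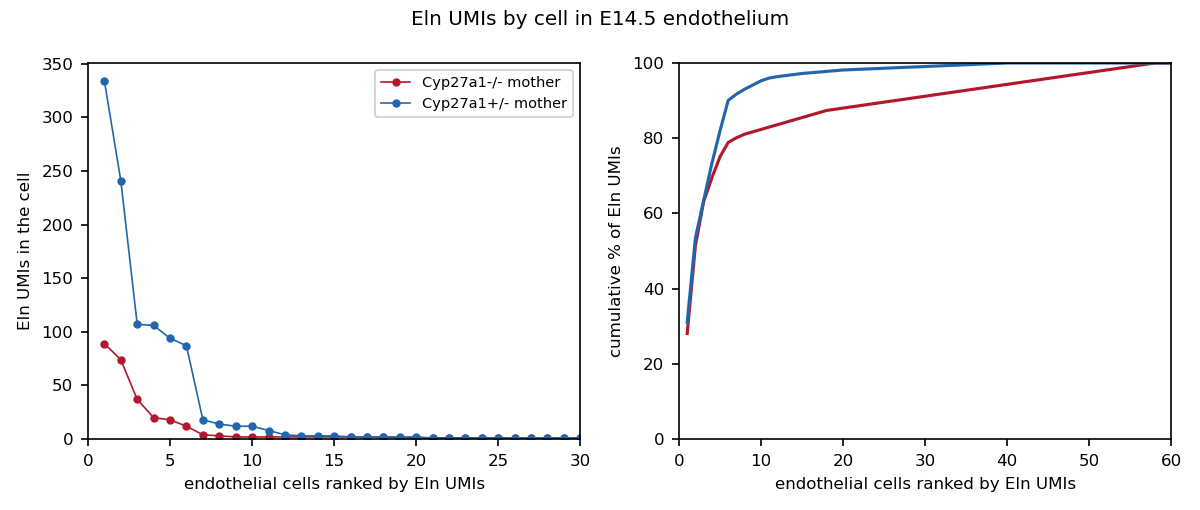
Eln UMIs in each E14.5 endothelial cell, ranked from the highest (left), and the cumulative percentage of each library's endothelial Eln UMIs over the ranks (right). Red is the Cyp27a1-/- mother, blue the Cyp27a1+/- mother. The curves show 89 and 334 UMIs in the highest cell, and 6 and 10 cells with 10 or more.

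The classes beside these differed among themselves in direction. In mesothelium (32 cells with the null mother, 110 with the heterozygous mother) Eln was at 251 CPM, against 78.3 CPM with the heterozygous mother, a ratio of 3.21 (2.42 to 4.26), with Mfap4 at 2.15 (1.71 to 2.68) and Ltbp4 at 2.10 (1.48 to 2.96). More than 50% of the mesothelial Mfap4 UMIs of the null mother's library were in 1 cell. The mesothelial intervals of Fbn1 (1.17), Fbn2 (0.962), Mfap2 (0.938), Loxl1 (0.874) and Fbln5 (0.760) included 1. In pericytes (57 cells with the null mother, 79 with the heterozygous mother) Eln had a ratio of 0.796 (0.649 to 0.972), Mfap2 0.796 (0.662 to 0.954) and Fbn1 1.42 (1.12 to 1.80). Emilin1, at 76.2 CPM, against 127 CPM with the heterozygous mother, was the 1 of 6 genes with enough UMIs that was at least 1.5-fold lower there, where 3.44% of 3924 genes were. None of the 6 was at least 1.5-fold higher, where 2.09% of genes were. In epithelium Fbn2, on 2580 and 2067 UMIs, had a ratio of 0.843 (0.795 to 0.894) and Mfap2 0.762 (0.679 to 0.856). Of the 7 genes with enough UMIs in epithelium, Eln and Mfap4 were at least 1.5-fold higher, at 9.26 and 12.9 CPM, against 4.35 and 7.69 CPM with the heterozygous mother. These levels were near those of erythroid cells, whose own CPM are lowered by the erythroid transcripts. Loxl1 was at least 1.5-fold lower (0.537), and 3.37% and 1.68% of 8955 genes were past those lines.

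A list of 50 other elastic fibre pathway genes, such as fibulins, LTBPs, lysyl oxidase relatives and elastases, was read in the same way. In E14.5 mesenchyme 5 of the 39 with enough UMIs were at least 1.5-fold higher with the null mother and 2 at least 1.5-fold lower (2.78% and 1.89% of all genes), and their median difference of log2(CPM + 10) was 0.05. Ltbp2, a microfibril-bound LTBP, was at 7.85 CPM, against 3.20 CPM with the heterozygous mother (ratio 2.46). Fmod, the small proteoglycan fibromodulin (1.86), Adamts17 (1.77) and Adamtsl2 (1.70), which are microfibril-associated, and Bgn, the proteoglycan biglycan (1.5), were the other 4. Emilin2 (0.367) and Tnxb, tenascin-X (0.538), were lower.

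In smooth muscle, of 34 with enough UMIs, Fmod (2.95), Ltbp2 (2.35) and Bgn (1.69) were at least 1.5-fold higher, and Timp3, an inhibitor of metalloproteinases (0.368), Emilin3 (0.482) and Tgfb2 (0.639) at least 1.5-fold lower (3.21% and 3.49% of all genes). Bgn stood there at 951 CPM, against 564 CPM with the heterozygous mother. Ltbp2, Fmod and Bgn were past the line in both mesenchyme and smooth muscle, as Eln was. No share of all genes past the line in both classes stands beside this overlap. It is therefore not a result on these genes. In endothelium 0 of 27 were at least 1.5-fold higher and 5 at least 1.5-fold lower (3.98% and 2.13% of all genes), Fn1, fibronectin (0.171), Mfap5 (0.194), Fbln2 (0.217), Vcan, versican (0.312) and Mmp2 (0.313). These are ratios of class sums, which a few cells can carry, as they did for Eln and Fbln5. Fbln2 was a leading gene of the arterial-like cluster, and no values without that cluster are given for these 5. The part of other cell types was not tested.

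Over the E14.5 clusters the levels of some of the genes followed each other more closely than others. Across 49 cluster sums with at least 20 cells, from 25 clusters that share 2 libraries and their depths, the log2(CPM + 10) of Eln had a Pearson r of 0.86 with Fbn1, 0.85 with Ltbp4, 0.81 with Emilin1 and 0.80 with Mfap4, but of 0.45 with Fbn2 and 0.46 with Fbln5. The closest pairs within the group were Lox with Mfap4 and Fbn1 with Ltbp4, both at 0.94. Outside the gene lists used here, the 5 genes most like Eln of 12106 ranked were the collagen VI genes Col6a3 (0.88), Col6a1 (0.88) and Col6a2 (0.86), Cd248, endosialin (0.87), and Sema6c (0.84). Col6a3 was at 81.4 CPM in mesenchyme with the null mother, against 46.4 CPM with the heterozygous mother, and at 130 and 125 CPM in smooth muscle.

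In the libraries labelled E18.5 a small cluster with mesenchymal markers (158 cells with the null mother, 245 with the heterozygous mother) held 282 of the 312 Eln UMIs of the null mother's library and 310 of the 557 of the heterozygous mother's. Most of the others were in an endothelial cluster led by Fabp4 and Lyve1 (558 and 647 cells) with the heterozygous mother, and no cluster was named smooth muscle. The mesenchyme-like cells also carried hepatocyte markers, summed at 15361 and 12262 CPM, and erythroid markers, summed at 6583 and 17719 CPM. Epithelial markers summed to 2688 and 1813 CPM there. Mesothelial markers summed to 908 and 701 CPM, against 2.63 and 2.79 CPM in E14.5 mesenchyme. E14.5 mesothelium had Loxl1 at 64.9 and 74.2 CPM and Ltbp4 at 143 and 68.1 CPM, above E14.5 mesenchyme. The part of all these other markers in the results was not tested. Eln was at 249 and 237 CPM in them, against 270 and 146 CPM in E14.5 mesenchyme, and its E18.5 ratio between mothers was 1.05 (0.893 to 1.24). Fbln5 was at 75.1 and 38.9 CPM, against 25.3 and 22.3 CPM at E14.5, and Loxl1 and Ltbp4 also stood higher than at E14.5, at 78.6 and 49.6 CPM and at 138 and 132 CPM. Mfap4, at 133 and 80.2 CPM, was far below its E14.5 level of 1423 and 708 CPM, and Fbn2, at 61.0 and 98.5 CPM, was below its 194 and 203 CPM. Age, tissue and library cannot be told apart in these differences.

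Between the mothers, Fbln5 (ratio 1.93, 1.35 to 2.79), Lox (1.83, 1.34 to 2.49), Mfap4 (1.66, 1.29 to 2.16) and Loxl1 (1.58, 1.14 to 2.22) were at least 1.5-fold higher with the null mother in the E18.5 mesenchyme-like cells, 4 of 10 where 6.17% of 3839 genes were. Fbn2 (0.619, 0.455 to 0.836) was at least 1.5-fold lower, 1 of 10 where 4.12% of genes were. The median difference of log2(CPM + 10) was 0.28 for the 10 and 0.02 for all genes. Lox, Mfap4 and Loxl1 were past the line at both ages, while Eln and Fbn1 were past it at E14.5 and not at E18.5. No share of all genes past the line at both ages stands beside this overlap. It is therefore not a result on these members. A difference between ages was not tested. In the male cells alone (44 with the null mother, 90 with the heterozygous mother) 5 genes had enough UMIs: Eln stood at a ratio of 0.861 (0.681 to 1.08), Fbn1 at 0.979 (0.633 to 1.49), Ltbp4 at 1.09 (0.792 to 1.5), Mfap2 at 1.63 (1.28 to 2.07) and Emilin1 at 0.404 (0.227 to 0.684). Fbln5, Lox, Loxl1, Mfap4 and Fbn2 had too few UMIs there for a ratio.

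In E18.5 endothelium 4 of the 5 genes with enough UMIs were at least 1.5-fold lower with the null mother, where 3.67% of 6326 genes were, and 0 were at least 1.5-fold higher, where 3.6% were. Eln had 5 UMIs in 558 cells, all in 1 cell, against 232 UMIs in 647 cells with the heterozygous mother, of which 162 were in 1 cell, a ratio of 0.018 (0.0058 to 0.0427). Fbln5 had 1 UMI, against 88 UMIs, of which 73 were in 1 cell, a ratio of 0.0095 (0.000238 to 0.0543). Fbn1 (ratio 0.292) and Ltbp4 (0.513) were the other 2, and Emilin1 stood at 83.2 and 120 CPM. In the male endothelial cells (134 and 222) Eln had 0 and 69 UMIs, and the interval of its ratio reached up to 0.0762. With a floor of 3 UMIs in place of 0 the ratio was 0.0603. Fbn1 had a ratio of 0.254 (0.129 to 0.462) in these cells and Emilin1 of 0.803 (0.598 to 1.07). The endothelial cells also carried hepatocyte markers, summed at 9052 and 1534 CPM, and erythroid markers, summed at 51497 and 34446 CPM (null mother, then heterozygous mother), whose part in the result was not tested. Emilin1 was also found in E18.5 megakaryocytes, at 124 and 141 CPM, and in immune cells, at 28.4 and 24.9 CPM.

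**Figure D5:**
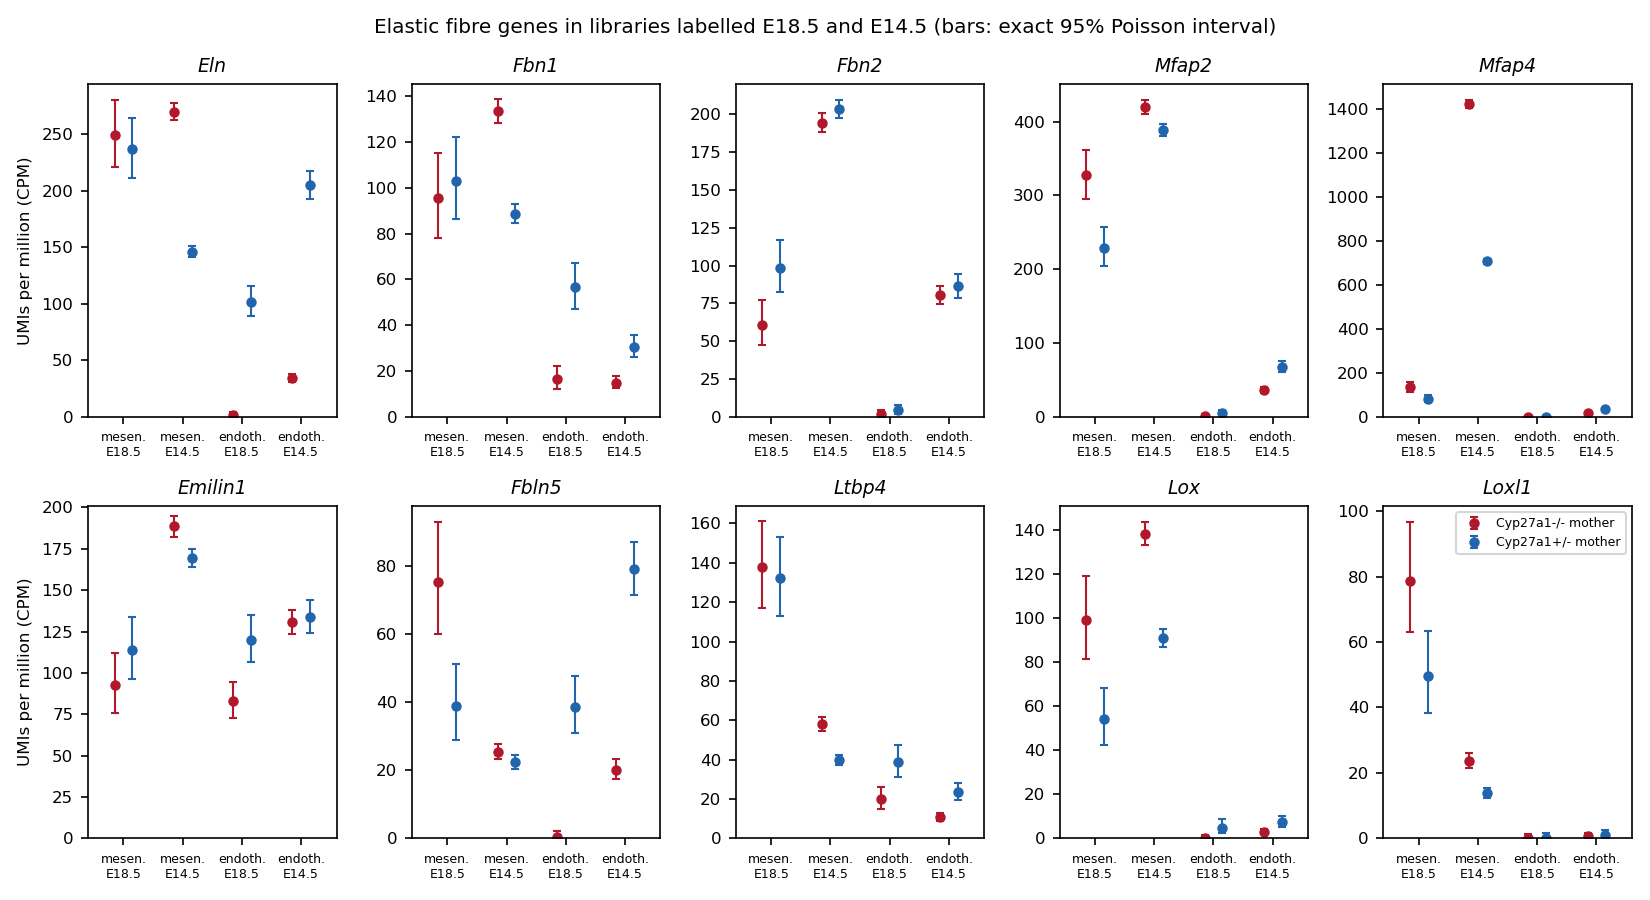
Levels of the 10 genes in mesenchymal and endothelial classes of the libraries labelled E18.5 and of those of E14.5, in CPM on linear axes from 0 with exact Poisson intervals. Red is the Cyp27a1-/- mother and blue the Cyp27a1+/- mother. Mfap4 is far lower and Ltbp4 and Loxl1 are higher in the E18.5 than in the E14.5 mesenchymal class.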

How the data were processed

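The deposited values are counts, whole UMIs per gene and cell in 1 matrix for the series. Per the submitters' processing notes, Cell Ranger 3.0.0, Seurat 4.3.0 and the mouse build mm10 were used by the authors, and other upstream settings are not given in the sources used here. The 10 genes and all lists were chosen with earlier results of these data known, and the rule that names clusters was revised after the clusters were seen.

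Each age was clustered with scanpy 1.11.5 (2000 variable genes without the 10 members, 30 principal components, 20 neighbours, Leiden resolution 1, with 2 as the higher resolution). A class name needed at least 3 detected markers; 34.2% and 42.2% of the E14.5 cells of the null and the heterozygous mother stayed unnamed, for low depth, mitochondrial RNA or leading genes of another class. No doublet caller was run, and cells with the top UMIs or with markers of another class were left out as alternatives instead. Ratios have the null mother's CPM on top and were read only where the higher library had 50 or more UMIs of the gene, each with an exact conditional interval. Levels carry exact Poisson intervals and shares Clopper-Pearson intervals. With 1 library per group there is no p-value. Log differences use a pseudocount of 10 CPM, and a floor of 3 counts stands for a count of 0. The calculation was tested on simulated data. Named genes are the 10 members, pathway genes past 1.5-fold in the 3 main E14.5 classes and the 5 genes most correlated with Eln. Alternatives changed the scaling, the cells kept, the clustering, the minimum and the pseudocount.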

Additional observations from a re-analysis of the deposited data

Results flagged for a closer look

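Eln, Fbn1 and Mfap4 had opposite directions in different E14.5 classes of the same libraries, which drew attention to them. Eln had a ratio, null over heterozygous mother, of 1.85 in mesenchyme and 2.29 in smooth muscle, against 0.166 in endothelium. Fbn1 had 1.5 in mesenchyme and 0.491 in endothelium. Mfap4 had 2.01 in mesenchyme and 0.492 in endothelium, where the shallow cluster had the opposite direction (2.01) to the deep cluster (0.311), and 3 alternatives turned its direction over the whole class (log2 differences 0.25, 0.0872 and 0.35). With 1 library per group these differences between classes were not tested. The endothelial side rests on 6 cells of the null mother and 10 of the heterozygous mother for Eln.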

How the results depend on the processing

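No paired analysis was possible because each group holds 1 library. Eln kept its direction under every alternative run in the 3 E14.5 classes, with log2 differences from 0.62 to 1.33 in mesenchyme, 1.09 to 1.37 in smooth muscle and -3.61 to -0.50 in endothelium, and Mfap4 kept it in mesenchyme (0.68 to 1.20). In endothelium Mfap4 turned to 0.25 as a mean over cells, 0.0872 without cells holding markers of another class and 0.35 with clusters at equal weight. The 5 genes past 1.5-fold in mesenchyme became 3 without the 5% of cells with the most UMIs, with clusters at equal weight and in female cells. In smooth muscle the 1 gene became 3 as a mean over cells (median 0.40) and 2 with clusters at equal weight. The 6 lower genes of endothelium became 2 as a mean over cells (median -0.19), 3 without cells holding markers of another class (-0.40), 3 with a minimum of 200 UMIs, 3 in female cells (-0.33) and 1 without the arterial-like cluster (-0.29); the median was -1.06 in male cells, -0.50 with clusters at equal weight and -0.98 with a pseudocount of 1 CPM. The cause of these shifts was not tested. Beside these recounts the share of all genes at least 1.5-fold lower is given only without the arterial-like cluster (1.46% of 8536 genes). For the others a shift in the members cannot be told apart from one in all genes. Endothelial members with a larger share of cells with the null mother numbered 7 unthinned and 2 thinned. The null mother's endothelial cells were deeper (median 4307 against 2463 UMIs), and no share over all genes stands beside these counts. They are therefore not a result on these members. At E18.5 in male cells fewer genes were measured (5 in mesenchyme and 3 in endothelium). The 1 mesenchymal gene at least 1.5-fold higher there was Mfap2 (1.63), which was not among the 4 of all cells. Those 4 genes and Fbn2 had too few UMIs in male cells, and Emilin1 (0.404) was at least 1.5-fold lower. The 4 lower endothelial genes became 2, Eln and Fbn1. Counting male cells alone at E18.5 and leaving out the arterial-like cluster, the shallower clusters or the Postn and Crabp1 cluster were chosen after seeing the data. Lox and Loxl1 in endothelium are limited by depth.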
